A study of Mus musculus with 24 samples.

Results

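The 8 genes described here move ions and water across epithelia. They are *Scnn1a*, *Scnn1b*, *Scnn1g*, *Atp1b1*, *Cftr*, *Slc12a2*, *Aqp3* and *Slc6a14*, 8 of the 23420 genes in the tables. They were taken by symbol, and the choice was made with earlier results of these data known. RNA of the whole left lung lobe was sequenced from mice at postnatal day 2 (P2) and day 5 (P5). *Vangl2*, a core gene of planar cell polarity, or *Ror2*, a receptor for non-canonical Wnt ligands, had been removed with floxed alleles and *Sox9Cre*, giving *Vangl2 f/f; Sox9Cre/+* and *Ror2 f/f; Sox9Cre/+* mutants. The controls are titled Control(Vangl1/2) in the *Vangl2* and Control(Ror2) in the *Ror2* comparisons, and their columns are headed WT. Each of the 4 comparisons, *Vangl2* at P2, *Vangl2* at P5, *Ror2* at P2 and *Ror2* at P5, had its own 3 control and 3 mutant lungs, 24 lungs in all, and was normalized on its own.

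*Sox9-Cre* is broadly expressed and removes a floxed gene from the distal lung epithelium, whereas whole lobes were sequenced, so that fewer cells of a type and less RNA per cell cannot be told apart in any of these values. The values are normalized counts, the reads on a gene divided by a factor for the depth of its lung, and the 21 lungs whose reads could be recovered held up to 21546673 reads on genes. In the P5 *Ror2* comparison, control replicate 1 had no reads on 94.7% of the 4692 expressed genes of chromosomes 5 to 9 and X, against 0.1% of the 9332 elsewhere. That lung was therefore set to missing for 5 of the 8 genes, *Scnn1a*, *Scnn1b*, *Scnn1g*, *Cftr* and *Slc6a14*, which have 2 controls at P5 in the *Ror2* comparison. As a check of the labels, *Vangl2* had 249 to 302 normalized counts in its P2 controls against 173 to 241 in its mutants and 292 to 369 against 148 to 170 at P5, lower in all mutant lungs without passing the test (limma adjusted p = 0.241 and 0.0603). *Ror2* overlapped between its controls and mutants at both ages (368 to 597 against 349 to 521 over both). The genotype entries of the P2 *Ror2* and P5 *Vangl2* mutants name the other gene, and the groups here follow the sample titles. By the X inactivation transcript *Xist*, males and females were unevenly spread: of the P2 *Vangl2* lungs, 1 of 3 controls and 2 of 3 mutants had it at a high level (18947 normalized counts or more), of the P5 *Vangl2* lungs 3 of 3 controls and 2 of 3 mutants, and of the P5 *Ror2* lungs with a value 1 of 2 controls (11858) and 0 of 3 mutants, while the P2 *Ror2* lungs were even, with 1 of 3 in each group.

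Before birth the lung epithelium secretes chloride, and water follows into the lumen; around birth it turns to absorbing sodium, which clears the liquid. Sodium enters the cell through the epithelial sodium channel ENaC in the apical membrane, made of an alpha (*Scnn1a*), a beta (*Scnn1b*) and a gamma (*Scnn1g*) subunit, and leaves through the basolateral sodium-potassium pump, whose beta subunit is encoded by *Atp1b1*. Chloride is loaded into the cell by the sodium-potassium-chloride cotransporter NKCC1 (*Slc12a2*) and leaves through the channel CFTR (*Cftr*). *Aqp3* encodes a basolateral channel for water and glycerol that is known from basal cells of the airways, and *Slc6a14* encodes a carrier that takes up neutral and basic amino acids together with sodium and chloride.

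In GRCm38 (GENCODE gene models), *Scnn1a* is at chr6:125320659-125344943, *Scnn1b* at chr7:121865038-121918514, *Scnn1g* at chr7:121734479-121768475, *Cftr* at chr6:18170687-18322768 and *Slc6a14* at chrX:21714896-21742355, all on the plus strand, and *Atp1b1* at chr1:164437109-164458355 and *Aqp3* at chr4:41092722-41098183 on the minus strand. *Scnn1b* and *Scnn1g* are thus neighbours on chromosome 7. A RefSeq promoter window, from 250 bases before to 50 after a transcription start (GRCm38.p6), was given for 6 of the 8 genes, all but *Scnn1a* and *Slc12a2*. The 250 bases before the start are printed for *Aqp3*, which had the largest change in each comparison, for *Slc6a14*, whose P2 call after loss of *Vangl2* held in the most alternative fits, for *Atp1b1*, which moved with *Scnn1a*, and for *Cftr*, which like *Slc12a2* was called in none of the 4 comparisons. Capitals mark a match to a searched motif, and the regions are chr4:41098184-41098433 (minus strand), chrX:21714650-21714899 (plus strand), chr1:164458356-164458605 (minus strand) and chr6:18170437-18170686 (plus strand).
Aqp3: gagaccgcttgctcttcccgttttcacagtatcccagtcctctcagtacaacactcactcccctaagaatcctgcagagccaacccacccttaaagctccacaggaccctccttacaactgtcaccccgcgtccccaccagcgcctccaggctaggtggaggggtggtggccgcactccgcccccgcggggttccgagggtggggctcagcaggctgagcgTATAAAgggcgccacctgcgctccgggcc
Slc6a14: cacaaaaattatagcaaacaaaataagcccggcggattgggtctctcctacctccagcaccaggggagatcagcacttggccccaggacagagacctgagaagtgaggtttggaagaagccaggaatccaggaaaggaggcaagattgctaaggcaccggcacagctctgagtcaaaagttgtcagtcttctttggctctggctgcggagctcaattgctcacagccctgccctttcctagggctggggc
Atp1b1: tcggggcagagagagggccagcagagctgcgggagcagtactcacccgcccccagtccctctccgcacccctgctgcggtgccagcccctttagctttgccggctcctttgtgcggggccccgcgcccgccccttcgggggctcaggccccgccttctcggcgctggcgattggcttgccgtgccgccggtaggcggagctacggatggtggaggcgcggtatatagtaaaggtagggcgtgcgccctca
Cftr: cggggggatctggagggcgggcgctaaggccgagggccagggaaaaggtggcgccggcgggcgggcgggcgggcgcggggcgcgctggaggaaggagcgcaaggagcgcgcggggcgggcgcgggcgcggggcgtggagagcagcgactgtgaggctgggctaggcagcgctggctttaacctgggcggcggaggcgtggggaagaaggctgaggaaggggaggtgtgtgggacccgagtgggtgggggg

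The 6 windows were searched on both strands for a STAT motif (TTCCNGGAA), the NF-kB motif, a glucocorticoid receptor half-site (AGAACA), a C/EBP motif (TTGCNNAA), a GRHL motif (AACCNGGTT), an NKX2-1 motif (CACTTGA) and the TATA box (letters TATAAA). The 1 match was the last of these, in *Aqp3*, from base -29 to base -24 before the start, letters that 13.6% of all 32817 windows of that length held. The others were in 1.15%, 0.411%, 19.0%, 10.8%, 0.271% and 3.06% of all windows, in the order given. No match in a window says only that these letters are not in it. The GC content of the windows ran from 52.7% in *Slc6a14* to 71.3% in *Cftr*.

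Most of these genes were higher in the mutants, and most clearly at P2 after loss of *Vangl2*. There, 6 of the 8 genes rose: *Slc6a14* 3.01-fold, *Aqp3* 3.11-fold, *Atp1b1* 2.66-fold, *Scnn1a* 2.58-fold, *Scnn1b* 1.81-fold and *Scnn1g* 1.66-fold. At P5 in the *Vangl2* mutants 3 of the 8 rose, *Aqp3* (7.95-fold), *Scnn1a* (2.24-fold) and *Atp1b1* (1.92-fold), and in the *Ror2* mutants 0 of 8 passed the test at P2 and 1, *Aqp3* (5.77-fold), at P5. With the replicate number as a block, 5 of the 8 passed in the P5 *Vangl2* mutants, with 8.95% of all genes called in that fit. All fold changes are on the scale of log2(normalized count + 1), which understates the change of low genes, and a gene was called at an adjusted p under 0.05 by limma over all genes tested. Over all genes tested, 3.59% were called in the *Vangl2* comparison at P2 (1.5% higher and 2.09% lower in mutants), 0.563% at P5 (0.534% higher and 0.0287% lower), 0% in the *Ror2* comparison at P2 and 0.181% at P5 (0.0873% higher and 0.0932% lower). The 0 of 8 in the P2 *Ror2* comparison stands beside 6 of 8 at an unadjusted p under 0.05, against 19.3% of all genes, and edgeR on the recovered reads also called 0 of 8. The median log2 fold change of the 8 genes was 1.11, 0.59, 0.71 and 0.37 in the 4 comparisons, beside medians over all genes of 0.00, 0.00, -0.01 and 0.00. All 3 mutant lungs lay above every control for 7, 6, 4 and 3 of the 8 genes, against 14.6%, 13.2%, 13.4% and 15.6% of all genes tested. All lay below every control for 0, 0, 0 and 1 of the 8, against 14.9%, 12.5%, 12.2% and 14.4%.

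**Figure D1:**
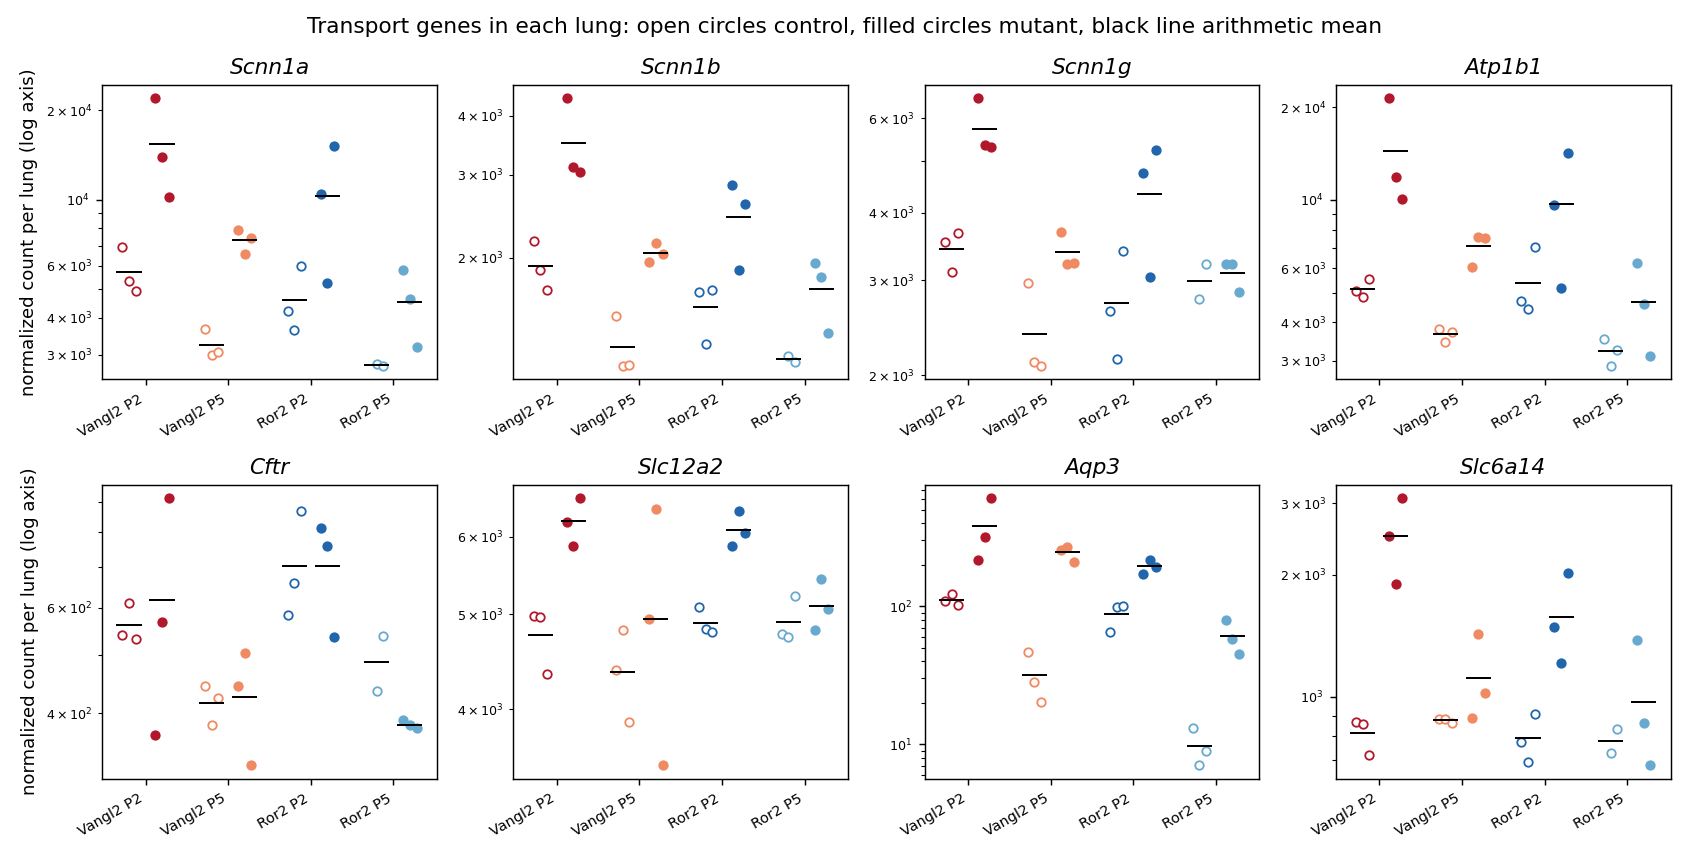
Normalized counts (log axis) of the 8 genes in every lung, with control lungs as open circles, mutant lungs as filled circles and the arithmetic mean of each group as a black line. In the P2 *Vangl2* comparison the filled circles lie above the open ones for 7 of the 8 genes, and for *Cftr* they lie on both sides.

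**Figure D2:**
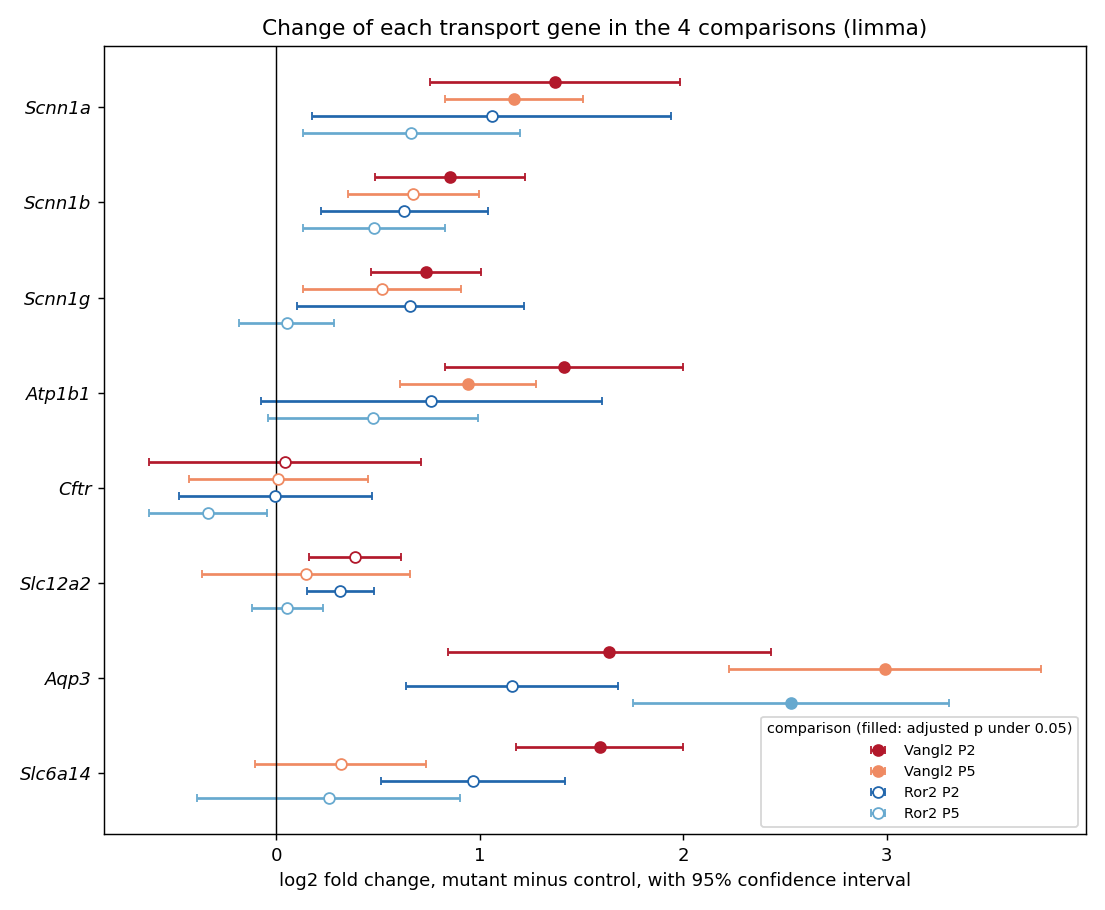
Log2 fold changes of the 8 genes (limma, mutant minus control) in the 4 comparisons, with bars for the 95% confidence interval and filled circles for an adjusted p under 0.05. Filled circles are at 6 genes for *Vangl2* at P2, 3 for *Vangl2* at P5, 0 for *Ror2* at P2 and 1, *Aqp3*, for *Ror2* at P5.

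The calls in the *Vangl2* mutants at P2 lay close to the threshold, with adjusted p-values from 0.0248 to 0.0456, and edgeR also called the 6. All 6 remained called without mutant replicate 1 or 3, but 1, *Slc6a14*, was left without control replicate 1 or mutant replicate 2, and 0 without control replicate 2 or 3. With *Xist* as a covariate for sex 0 of the 8 were called at P2, with *Atp1b1* at a log2 fold change of 1.59 and the other called genes between 0.76 and 1.58 (adjusted p from 0.0694 to 0.0991). In the *Vangl2* mutants at P5 the 3 calls became 2 without control replicate 1 (*Scnn1a* and *Aqp3*), 1 without control replicate 3 (*Aqp3*) or mutant replicate 2 (*Scnn1a*), and 0 without control replicate 2 or mutant replicate 1 or 3, or with *Xist* as a covariate. In the *Ror2* mutants 4 genes were called at P2 without mutant replicate 2 (*Scnn1a*, *Scnn1b*, *Scnn1g* and *Slc6a14*) and 4 at P5 without mutant replicate 3 (*Scnn1a*, *Scnn1b*, *Atp1b1* and *Aqp3*), each lung being the lowest mutant for the genes named.

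*Scnn1a*, the ENaC subunit without which the channel carries little current, had 6940, 5308 and 4924 normalized counts in the P2 controls of the *Vangl2* comparison and 21955, 13953 and 10211 in the mutants. Every mutant lung was above every control, and the mutants were spread, with replicate 1 at the top. The log2 fold change was 1.37 (standard error, SE, 0.27, limma adjusted p = 0.0387). At P5 the *Vangl2* controls had 3676, 2998 and 3082 and the mutants 7888, 6564 and 7420. The P5 mutant lungs lay close together and all above the controls, and the log2 fold change was 1.17 (SE 0.15, limma adjusted p = 0.0201). In the *Ror2* comparison at P2 the controls had 4204, 3636 and 5978 and the mutants 10420, 5227 and 15136. Mutant replicate 2 lay below the highest control, so the groups overlapped, and the log2 fold change of 1.06 did not pass (SE 0.38, limma adjusted p = 0.219), while without that lung it was 1.48 (adjusted p = 0.0384). At P5 the 2 *Ror2* controls had 2797 and 2764 and the mutants 5777, 4646 and 3181. All 3 mutants were higher, mutant replicate 3 by the least, and the log2 fold change was 0.66 (SE 0.22, limma adjusted p = 0.204; without mutant replicate 3, 0.90 and 0.0234).

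*Scnn1b*, the beta subunit, had between 1711 and 2168 normalized counts in the P2 *Vangl2* controls and between 3043 and 4358 in the mutants, a log2 fold change of 0.85 (SE 0.16, limma adjusted p = 0.0342). *Scnn1g*, the gamma subunit, had 3525, 3113 and 3663 in the same controls and 6528, 5349 and 5308 in the mutants, a log2 fold change of 0.73 (SE 0.12, limma adjusted p = 0.0312). Both were higher in every mutant lung, with the highest value in mutant replicate 1, as for *Scnn1a*. At P5 in the *Vangl2* mutants the log2 fold changes were 0.67 for *Scnn1b* (adjusted p = 0.0823) and 0.52 for *Scnn1g* (adjusted p = 0.167), again with all mutant lungs above all controls. With the replicate number as a block both passed at P5 (limma adjusted p = 0.027 and 0.0357), which made 5 of the 8 genes called there, with 8.95% of all genes called in that fit (5.47% higher in mutants). In the *Ror2* mutants at P2 *Scnn1b* had a log2 fold change of 0.63 (adjusted p = 0.203) and *Scnn1g* one of 0.66 (adjusted p = 0.222), and both passed without mutant replicate 2 (limma adjusted p = 0.0398 and 0.049). At P5 *Scnn1b* had 1238 and 1203 in the 2 *Ror2* controls and 1950, 1822 and 1383 in the mutants, a log2 fold change of 0.48 (adjusted p = 0.178; without mutant replicate 3, 0.0221). *Scnn1g* had 2768 and 3210 in those controls and 3216, 3210 and 2851 in the mutants. Its groups overlapped, and its log2 fold change of 0.05 had a 95% confidence interval from -0.18 to 0.28.

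Per kilobase of transcript, the 3 subunits were not equally abundant. In the P2 *Vangl2* controls *Scnn1a* had 1636 ± 306 normalized counts per kilobase (SD, n = 3), *Scnn1g* 1148 ± 95.8 and *Scnn1b* 776 ± 93.0, and *Scnn1b* was the lowest of the 3 in the mean of the controls in each comparison. The ratio of *Scnn1a* to *Scnn1g* within a lung, taken as a ratio of normalized counts and so free of the scaling of the lung, was looked at after the values of the subunits had been seen. It was 1.24, 1.42 and 1.48 in the P5 *Vangl2* controls and 2.14, 2.04 and 2.30 in the mutants, with no overlap, a log2 difference of 0.65. In the P5 *Ror2* lungs it was 1.01 and 0.861 in controls and 1.80, 1.45 and 1.12 in mutants, also with no overlap, a log2 difference of 0.61. At P2 the groups overlapped, with log2 differences of 0.63 in the *Vangl2* and 0.40 in the *Ror2* comparison. The ratio of *Scnn1a* to *Scnn1b* differed by 0.52, 0.49, 0.43 and 0.18 on the log2 scale in the 4 comparisons, higher in every mutant lung than in every control in all but the *Ror2* comparison at P2, though at P5 in the *Ror2* lungs the highest control (2.298) and the lowest mutant (2.301) nearly met. That of *Scnn1b* to *Scnn1g* overlapped in all but the P5 *Ror2* comparison, where it was 0.447 and 0.375 in controls and 0.607, 0.568 and 0.485 in mutants. None of these differences could reach an exact permutation p under 0.1 with 3 lungs against 3, or under 0.2 with 2 against 3, and over the 20 ratios computed the smallest adjusted p was 0.286.

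**Figure D3:**
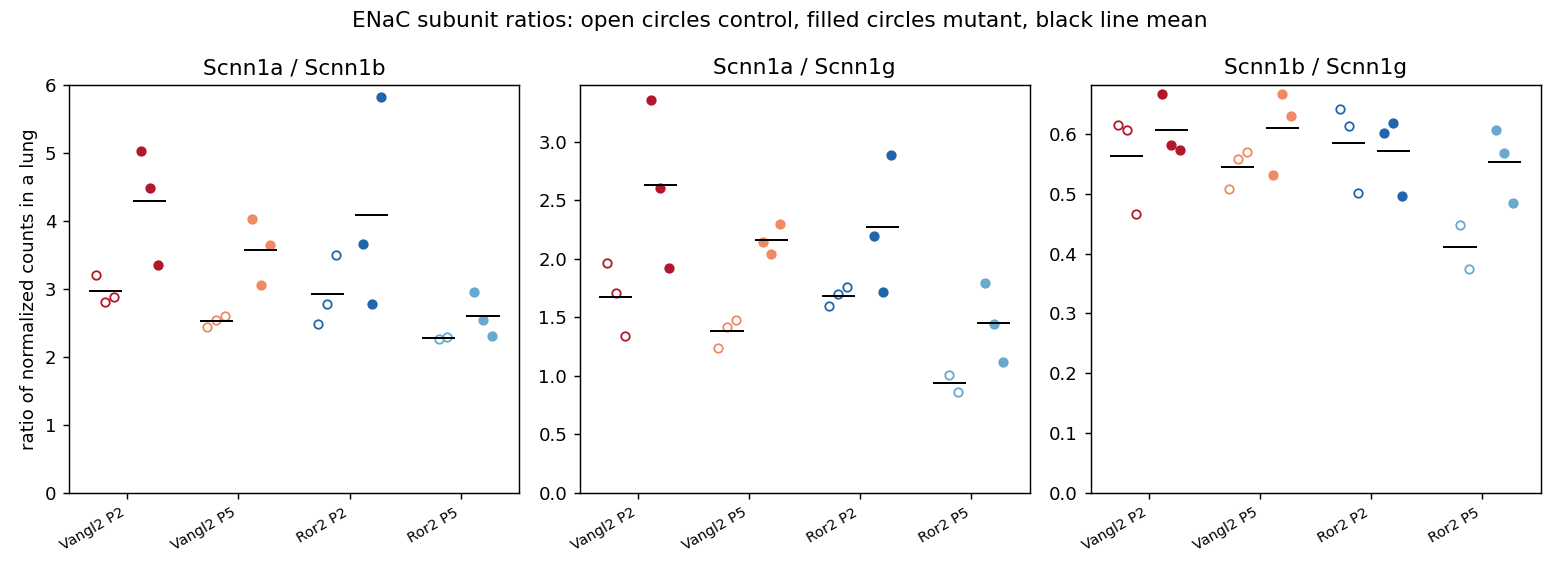
Ratios of the normalized counts of the 3 ENaC subunits within each lung, with control lungs as open circles, mutant lungs as filled circles and group means as black lines. The ratio of *Scnn1a* to *Scnn1g* lies between 1.24 and 1.48 in the P5 *Vangl2* controls and between 2.04 and 2.30 in the mutants.

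*Atp1b1*, the beta subunit of the sodium-potassium pump, followed *Scnn1a*. It had 5057, 4853 and 5532 normalized counts in the P2 *Vangl2* controls and 21386, 11860 and 10077 in the mutants. The order of the mutant lungs was that of *Scnn1a*, all were above the controls, and the log2 fold change was 1.41 (SE 0.25, limma adjusted p = 0.0326). At P5 the values were 3807, 3448 and 3725 against 6075, 7559 and 7544, with no overlap, a log2 fold change of 0.94 (SE 0.15, limma adjusted p = 0.0411). In the *Ror2* comparison the P2 controls had 4690, 4428 and 7006 and the mutants 9607, 5191 and 14212, and the P5 controls 3524, 2897 and 3252 and the mutants 6251, 4597 and 3112. Mutant replicate 2 at P2 and mutant replicate 3 at P5 lay within the range of the controls, as they were the lowest mutants for *Scnn1a*, and the log2 fold changes of 0.76 and 0.48 did not pass (limma adjusted p = 0.288 and 0.296).

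Around the mean of its own group, the log2 level of *Scnn1a* moved with that of *Atp1b1* (Pearson r = 0.91), *Scnn1b* (0.84) and *Scnn1g* (0.81) over the 23 lungs with both values. The same r was 0.48 with *Slc6a14*, -0.15 with *Aqp3*, -0.15 with *Slc12a2* and -0.43 with *Cftr*. *Cftr* and *Aqp3* had an r of 0.68. Lungs share a table and its scaling, and each group mean was taken out, so these values are descriptions without a test. Among 12659 genes with a mean of at least 50 in every table, the 3 most like *Scnn1a* by this measure were *Prdx6* (r = 0.96), *Dapk2* (0.95) and *Adamtsl4* (0.94). Those most like *Atp1b1* were *Hopx* (0.94), *Cry2* (0.93) and *Tinagl1* (0.93), *Hopx* being a marker of alveolar type I cells. Those most like *Slc6a14* were *Zfp612* (0.90), *Rspo1* (0.86) and *Sbsn* (0.85), and those most like *Cftr* were *Cygb* (0.86), *Timm17b* (0.84) and *Ap1s1* (0.84).

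**Figure D4:**
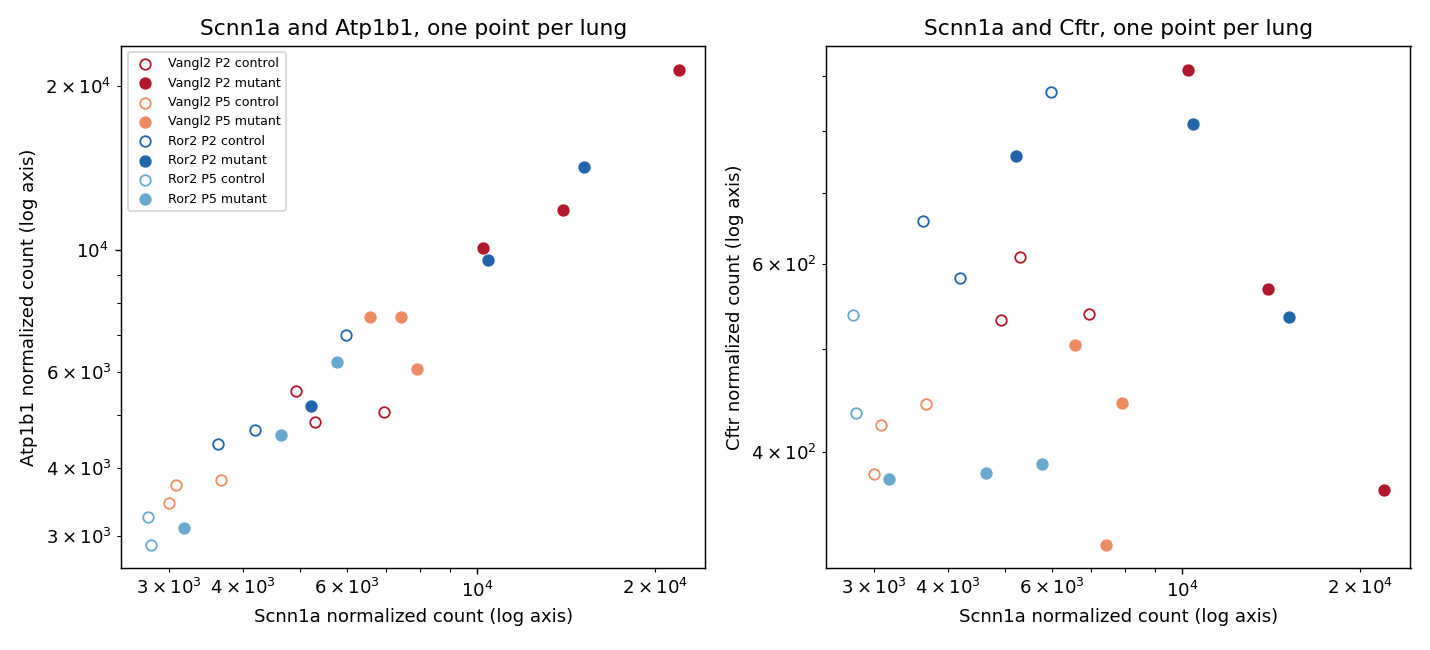
Normalized counts of *Atp1b1* (left) and *Cftr* (right) against those of *Scnn1a*, both axes logarithmic, with a point for each of 23 lungs. *Atp1b1* climbs with *Scnn1a* from 2897 to 21386 normalized counts, whereas *Cftr* has its lowest P2 value, 369, in the lung with the highest *Scnn1a*, mutant replicate 1 of the *Vangl2* comparison.

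The chloride channel gene *Cftr* gave another picture. *Cftr* had 539, 610 and 533 normalized counts in the P2 *Vangl2* controls and 369, 568 and 913 in the mutants. The mutants spread to both sides of the controls, and their order was the reverse of that for *Scnn1a*, with a log2 fold change of 0.04 (95% confidence interval from -0.63 to 0.71, limma adjusted p = 0.946). In the *Vangl2* mutants at P5 and the *Ror2* mutants at P2 the log2 fold changes were 0.01 (interval from -0.43 to 0.45) and -0.01 (interval from -0.48 to 0.47). At P5 *Cftr* had 436 and 538 in the 2 *Ror2* controls and 390, 382 and 378 in the mutants. All 3 mutants were below both controls, a log2 fold change of -0.34 (SE 0.12) that did not pass (limma adjusted p = 0.222).

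*Slc12a2* (chr18:57878678-57946821, plus strand) had 4977, 4964 and 4345 in the P2 *Vangl2* controls and 6215, 5875 and 6572 in the mutants, and 5081, 4826 and 4801 against 5870, 6377 and 6055 in the P2 *Ror2* comparison. At P2 every mutant lung was above every control in both comparisons, by a small amount, and neither log2 fold change passed: 0.39 (SE 0.10, limma adjusted p = 0.0736) and 0.31 (SE 0.07, limma adjusted p = 0.203). At P5 the groups overlapped in both, with log2 fold changes of 0.14 (interval from -0.37 to 0.66) and 0.05 (interval from -0.12 to 0.23).

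*Aqp3* had the largest fold change of the 8 genes in each comparison and, per kilobase of transcript, the lowest level of the 8 in the controls. At P2 it had 110, 123 and 102 normalized counts in the *Vangl2* controls and 218, 319 and 609 in the mutants, and 65.0, 98.3 and 101 against 172, 218 and 193 in the *Ror2* comparison. Every mutant lung was above every control in both. The P2 log2 fold changes were 1.64 in the *Vangl2* mutants (SE 0.34, limma adjusted p = 0.0456) and 1.16 in the *Ror2* mutants, where it did not pass (SE 0.22, limma adjusted p = 0.203). At P5 it had 46.5, 28.2 and 20.2 in the *Vangl2* controls and 258, 269 and 211 in the mutants, and 13.1, 7.03 and 8.93 against 79.3, 57.4 and 44.8 in the *Ror2* comparison. The P5 controls were lower than those at P2 in tables normalized apart, and the mutants were again all higher, by log2 fold changes of 2.99 (SE 0.33, limma adjusted p = 0.0148) and 2.53 (SE 0.34, limma adjusted p = 0.0475). The P5 *Ror2* call rests on controls of 7.03 to 13.1 normalized counts. It did not hold without a filter on low values, at a mean of at least 10, with the replicate block, without the trend of eBayes, with control replicate 1 as deposited or without any single one of control replicates 1, 2 and 3 and mutant replicates 1 and 2, and adjusted p reached 0.385. Without mutant replicate 3 it was 0.0181.

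*Slc6a14*, on the X chromosome, had 866, 857 and 720 in the P2 *Vangl2* controls and 2489, 1898 and 3094 in the mutants. All mutants were above all controls, and the log2 fold change of 1.59 (SE 0.18, limma adjusted p = 0.0248) was past the threshold in 13 of 17 alternative fits, more than for any of the other 7 genes in that comparison. In the *Ror2* comparison at P2 the values were 775, 693 and 907 against 1490, 1210 and 2025, also with no overlap, a log2 fold change of 0.97 that did not pass (SE 0.19, limma adjusted p = 0.203; without mutant replicate 2, 0.0375). At P5 the *Vangl2* controls had 883, 882 and 864 and the mutants 888, 1430 and 1022. Mutant replicate 1 was next to the highest control, and the log2 fold change was 0.32 (interval from -0.10 to 0.74). In the P5 *Ror2* comparison 2 controls had 726 and 835 and the mutants 1380, 861 and 678, on both sides of the controls, with a log2 fold change of 0.26 (interval from -0.39 to 0.90).

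Of the 8 genes, *Aqp3* and *Slc6a14* had the largest differences in change between the ages, in opposite directions and without passing the test. The change of *Aqp3* was larger at P5 than at P2 by 1.35 on the log2 scale in the *Vangl2* comparison (interval from 0.26 to 2.45, limma adjusted p = 0.577) and by 1.37 in the *Ror2* comparison (interval from 0.49 to 2.25, limma adjusted p = 0.451). That of *Slc6a14* was smaller at P5, the difference being -1.27 (interval from -1.86 to -0.68, limma adjusted p = 0.577) and -0.71 (interval from -1.53 to 0.11, limma adjusted p = 0.58). None of these differences passed, and 0% of all genes did so in either comparison of ages. At an unadjusted p under 0.05, 2 of the 8 genes differed with age in the *Vangl2* comparison, against 8.44% of all genes, and 2 (*Aqp3* and *Slc12a2*) in the *Ror2* comparison, against 9.5%. Between the *Vangl2* and the *Ror2* comparison, 0 of the 8 changes differed at P2 or at P5 at an adjusted or unadjusted p under 0.05 by limma, with 4.6% and 4.73% of all genes at the unadjusted threshold and 0% and 0.0118% at the adjusted one. The 95% intervals were wide, and the P2 difference was 0.62 for *Slc6a14* (from -0.0048 to 1.25) and 0.48 for *Aqp3* (from -0.49 to 1.45).

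The lungs also differed in their content of epithelial RNA. The summed level of 9 pan-epithelial markers (*Epcam*, *Cdh1*, *Nkx2-1* and others) was between 23077 and 25980 normalized counts in the P2 *Vangl2* controls and between 32573 and 38222 in the mutants, 17221 to 20079 against 23391 to 28056 at P5, and 19807 to 21432 against 21934 to 32644 in the *Ror2* lungs at P2. In the P5 *Ror2* lungs, where 6 of the 9 have a value in all lungs, it was 8818 to 9561 against 10141 to 13281. These sums did not overlap in any comparison, though they nearly met in the P2 *Ror2* lungs. By gene, all mutants lay above all controls for 9, 5, 3 and 5 of the 9 markers in the 4 comparisons. The share of all genes was 14.6%, 13.2%, 13.4% and 15.6%. *Epcam* and *Krt7* were called in the P2 *Vangl2* mutants and none of the 9 in the other comparisons. When each lung was scaled to these markers, the median of all genes shifted by -0.52, -0.46, -0.30 and -0.37 on the log2 scale in the 4 comparisons, and the changes are then relative to the epithelial markers. Because every gene is shifted, a large share of all genes passed on that scale in the *Vangl2* mutants, as counted in the closing section. A call there does not set these genes apart. On that scale 4 of the 8 genes passed in the P2 *Vangl2* mutants, *Slc6a14* (1.06), *Aqp3* (1.11), *Atp1b1* (0.88) and *Scnn1a* (0.84), while *Scnn1b* had 0.32 and *Scnn1g* 0.20. In the *Vangl2* mutants at P5, *Aqp3* (2.53) and *Scnn1a* (0.70) passed, and in the *Ror2* mutants at P5 *Aqp3* (2.19, limma adjusted p = 0.00972), and *Cftr* was lower (-0.74, limma adjusted p = 0.048). The direction turned for *Slc12a2* in the *Vangl2* mutants (-0.14 and -0.32) and in the P5 *Ror2* mutants (-0.30), for *Cftr* in the *Vangl2* mutants (-0.49 and -0.46), for *Slc6a14* at P5 (-0.15 in both) and for *Scnn1g* in the P5 *Ror2* mutants (-0.35). For *Aqp3*, *Scnn1a*, *Scnn1b* and *Atp1b1* it stayed positive in all 4 comparisons.

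**Figure D5:**
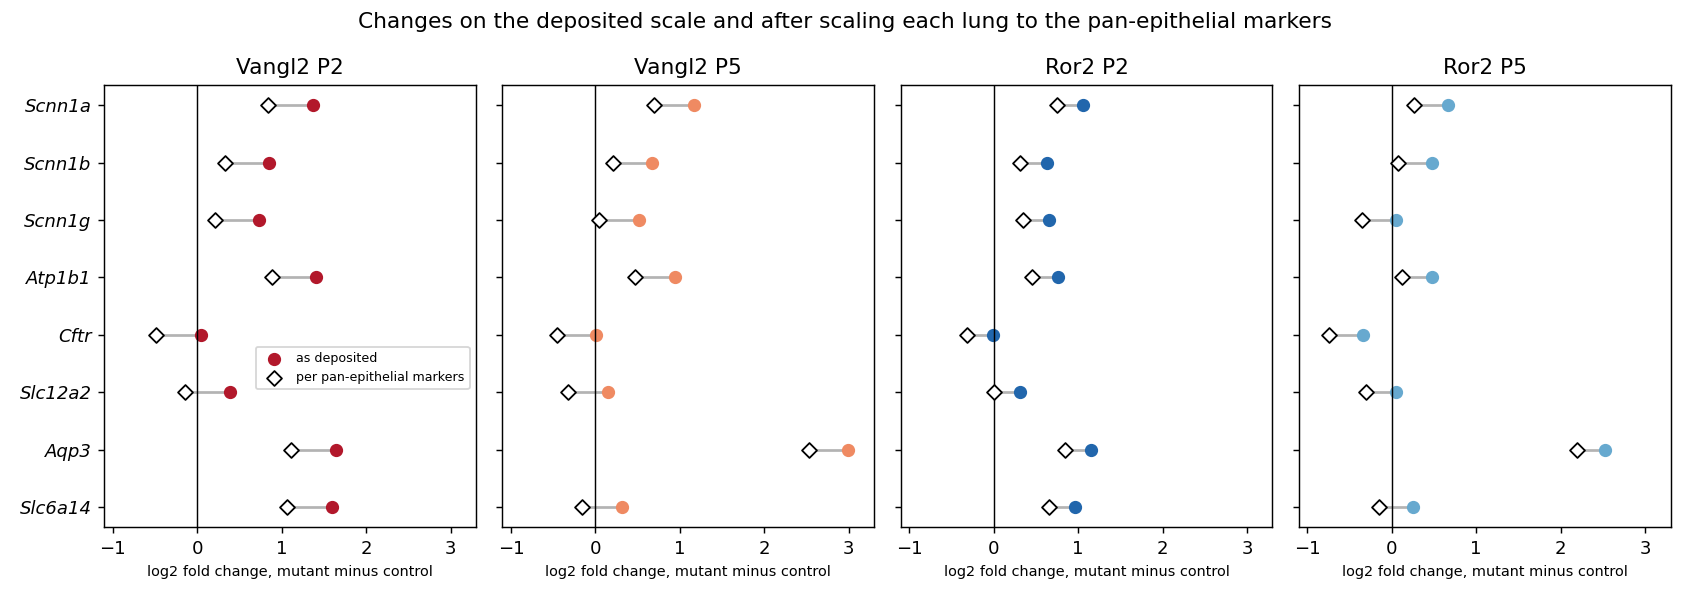
Log2 fold changes (mutant minus control) of the 8 genes on the deposited scale, as filled circles, and after each lung was scaled to the pan-epithelial markers, as open diamonds. In the P2 *Vangl2* panel every diamond lies to the left of its circle, *Scnn1g* falls from 0.73 to 0.20, and *Cftr* and *Slc12a2* cross to -0.49 and -0.14.

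Markers of single cell types were read in all 4 comparisons, given here in the order *Vangl2* at P2, *Vangl2* at P5, *Ror2* at P2 and *Ror2* at P5, and 0 of them were called in either *Ror2* comparison. The sums of the P5 *Ror2* lungs take the genes with a value in every lung and may hold fewer genes. Alveolar type I markers (9 genes) had median log2 fold changes of 0.46, 0.14, 0.48 and 0.16. They summed to 110103 to 135677 in controls against 143963 to 180853 in mutants in the P2 *Vangl2* lungs, where *Hopx* was called, and to 98186 to 109214 against 98907 to 135733, 105285 to 119208 against 118371 to 194115 and 78058 to 80945 against 84094 to 96296 in the others. Alveolar type II markers (9 genes) had medians of 0.41, 0.48, 0.28 and -0.18. Their sums overlapped in every comparison, 349023 to 388272 against 380155 to 506127, 180996 to 297172 against 256069 to 429049, 247318 to 273593 against 256136 to 312109, and 179407 to 212989 against 151296 to 186317. *Sftpa1*, *Sftpd* and *Slc34a2* were called in the P2 *Vangl2* mutants, where *Sftpc* (-0.05) and *Etv5* (-0.20) did not follow them.

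Club cell markers (6 genes) had median log2 fold changes of 0.78, 1.65, -0.23 and 1.29, with 0 called. They summed to 127364 to 153284 against 231513 to 258979, 55445 to 108769 against 184166 to 245034, 111012 to 189950 against 143611 to 256224 and 63996 to 78184 against 115274 to 221059. In the P2 *Ror2* lungs 3 of the 6 had a negative value, *Scgb3a2* (-0.92), *Scgb3a1* (-2.84) and *Bpifa1* (-0.99), whereas *Scgb1a1* had 0.72. All mutants lay above all controls for 6 of 6, 6 of 6, 0 of 6 and 5 of 5 tested club markers. The share of all genes was 14.6%, 13.2%, 13.4% and 15.6%. Ciliated cell markers, 6 of 7 in the tables, had medians of 0.58, 1.16, -0.06 and 1.23, and 0 of 6 were called in each. They summed to 5570 to 7714 against 7721 to 11687 and 3665 to 6897 against 8705 to 10010 in the *Vangl2* lungs. In the *Ror2* lungs the sums were 4749 to 8621 against 5441 to 9376 and 555 to 644 against 1097 to 2267. The P2 *Ror2* sums overlapped, and the P2 *Vangl2* sums nearly met. All mutants lay above all controls for 4, 5, 0 and 6 of the 6. Basal cell markers (5 genes) were low and 0 were called. They summed to 77.9 to 150 against 84.6 to 209, 50.5 to 130 against 88.4 to 1258, 57.8 to 251 against 55.2 to 79.8 and 38.7 to 43.2 against 44.9 to 70.8. The 1258 was in mutant replicate 3, beside 130 and 88.4 in mutant replicates 1 and 2. The median log2 fold change of the basal markers was -1.86 in the P2 *Ror2* lungs, where the sums overlapped, and positive in the other comparisons. Whether basal cells had a part in the change of *Aqp3* was not tested, and these markers are too low to show it. Of 4 ionocyte markers, which include *Cftr* itself, the defining *Foxi1* was at 0 in all P2 *Vangl2* lungs and *Atp6v0d2* alone was called, in the P5 *Vangl2* mutants.

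Neutrophil markers, 5 of 6 in the tables, summed to 1672 to 2540 against 4520 to 8139 at P2 and 1909 to 2504 against 5659 to 13623 at P5 in the *Vangl2* comparison, with 4 and 3 called, and to 2660 to 17347 against 3283 to 4381 and 951 to 1608 against 1185 to 2517 in the *Ror2* comparison. Macrophage markers, 3 of 5 in the tables, had 0 called and medians of 0.62, 0.89, -0.46 and 0.01. Their sums did not overlap in the *Vangl2* lungs (1675 to 1918 against 1969 to 2736 at P2, 1471 to 1774 against 2477 to 2724 at P5) and overlapped in the *Ror2* lungs (1799 to 2761 against 1391 to 1867, and 1250 to 1339 against 1204 to 1544). Mesenchymal markers (7 genes) had medians of -0.50, -0.69, -0.52 and -0.29. Their sums did not overlap in the first 3 comparisons, 138978 to 156414 against 97658 to 112721, 155762 to 190201 against 73303 to 138813 and 130468 to 147307 against 76498 to 124778, and at P5 in the *Ror2* lungs they were 114436 to 126696 against 89258 to 116490. *Col1a1* and *Myh11* were called lower in the P2 *Vangl2* mutants, where *Tcf21* (0.39) and *Pdgfra* (0.13) had positive values. Endothelial markers (5 genes) had 0 called and medians of -0.01, -0.61, 0.20 and -0.14. Their sums overlapped in all but the P5 *Vangl2* lungs, where they were 63472 to 70438 against 36165 to 58557. Of 4 erythroid markers in the tables *Alas2* was called, lower in the P2 *Vangl2* mutants (-1.51). The part of these cell populations in the changes of the transport genes was not tested beyond the scaling above.

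Of a wider list of 101 genes of epithelial transport other than the 8, chosen by function, 99 were in the tables and 93 were tested in the P2 *Vangl2* comparison. There, 9 rose and 0 fell, beside 1.5% of all genes called higher and 2.09% lower. The median log2 fold change over the list was 0.32, and 0.00 over all genes. *Slc5a1*, the sodium-glucose cotransporter SGLT1, had 47.4, 56.0 and 32.6 in controls and 165, 114 and 264 in mutants, and its log2 fold change of 1.93 was the largest of the 9 (SE 0.35, limma adjusted p = 0.0329). *St14*, a membrane protease that can activate ENaC, went from 1022 ± 66.4 (SD, n = 3) to 1831 ± 184, a log2 fold change of 0.84 (limma adjusted p = 0.0265). *Hsd11b1*, which regenerates active glucocorticoid, had a log2 fold change of 1.12 (adjusted p = 0.0398), and the potassium channels *Kcnj15* and *Kcnj2* had 1.09 (adjusted p = 0.0329) and 0.92 (adjusted p = 0.0312). *Aqp4*, a water channel, had 0.98 (adjusted p = 0.041), the tight junction genes *Tjp3* and *Cldn3* had 0.95 (adjusted p = 0.0342) and 0.86 (adjusted p = 0.0408), and *Slc34a2*, the sodium-phosphate cotransporter of type II cells, had 0.63 (adjusted p = 0.0394). Scaled to the pan-epithelial markers, *Slc5a1*, *Hsd11b1*, *Kcnj15* and *Tjp3* still passed. On that scale *St14*, *Aqp4*, *Cldn3*, *Kcnj2* and *Slc34a2* did not (limma adjusted p from 0.0694 to 0.595), and *Slc34a2* fell to 0.10. By group, 2 of 31 tested genes of sodium uptake and its regulation rose, 0 of 22 of chloride and bicarbonate, 2 of 8 of potassium, 1 of 5 of water, 2 of 13 of phosphate, amino acids and other solutes and 2 of 14 of tight junctions.

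In the other comparisons few of this list passed. With each lung left out, 0 to 1 passed in the *Vangl2* mutants at P5. In the *Ror2* mutants 0 to 12 did so at P2 and 0 to 9 at P5. At P5 in the *Vangl2* mutants 1 of 96 tested rose, *Atp6v0d2*, a subunit of the proton pump, with 238, 220 and 173 in controls and 587, 457 and 728 in mutants, for a log2 fold change of 1.47 (SE 0.22, limma adjusted p = 0.0374). Of all genes, 0.534% were called higher in that comparison. With the replicate block 19 of the 96 passed there, beside 8.95% of all genes. In the *Ror2* mutants 0 of 95 passed at P2 by limma and by edgeR, and the 3 largest changes among those with a mean of at least 50 were in *Atp6v1b1* (-1.23, adjusted p = 0.34), *Slc5a1* (1.08, adjusted p = 0.265) and *Hsd11b1* (0.99, adjusted p = 0.253), each with overlapping groups. At P5 in the *Ror2* mutants 1 of 93 fell, *Kcnk5*, a potassium channel, with 530, 542 and 586 in controls and 232, 238 and 274 in mutants, for a log2 fold change of -1.16 (SE 0.10, limma adjusted p = 0.0274). In the *Vangl2* mutants its groups overlapped at both ages. Of all genes, 0% were called in the *Ror2* comparison at P2, and 0.0932% were called lower at P5. The median log2 fold change over the list was 0.27, 0.18 and 0.10 in these 3 comparisons, beside 0.00, -0.01 and 0.00 over all genes. *Aqp4* had log2 fold changes of 1.38 and 1.55 at P5 in the *Vangl2* and *Ror2* mutants, with every mutant above every control and adjusted p-values of 0.0678 and 0.0829, and 0.10 at P2 in the *Ror2* mutants.

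Glucocorticoids are known inducers of ENaC and the sodium-potassium pump, and 10 genes that respond to them were read beside the transport genes. In the P2 *Vangl2* comparison they summed to 17993, 16327 and 22495 in controls and 92134, 33142 and 40151 in mutants, the highest value again in mutant replicate 1. In the other comparisons the sums overlapped. They were 14062 to 31821 against 21105 to 46046 in the P5 *Vangl2* lungs and 23932 to 38807 against 32630 to 61543 in the P2 *Ror2* lungs. In the P5 *Ror2* lungs, with 8 of the 10 summed, they were 24709 to 32539 against 19311 to 28477. Their median log2 fold change was 1.55 in the *Vangl2* mutants at P2, 0.74 at P5, and 0.64 and -0.01 in the *Ror2* mutants at P2 and P5. The medians over all genes were 0.00, 0.00, -0.01 and 0.00. All mutants lay above all controls for 7, 4, 3 and 1 of the 10, against 14.6%, 13.2%, 13.4% and 15.6% of all genes. All lay below for 0, 0, 0 and 2, against 14.9%, 12.5%, 12.2% and 14.4%. The groups of *Sgk1* overlapped in all 4 comparisons, with log2 fold changes of 0.20, -0.49, 0.07 and -0.09. *Lcn2*, also known as a gene of inflammation, was the 1 called at P2 in the *Vangl2* mutants (log2 fold change 2.77, limma adjusted p = 0.0411), *Lcn2* and *Zbtb16* were called at P5, and 0 of 10 were in either *Ror2* comparison. Of all genes, 1.5% were called higher at P2 and 0.534% at P5 in the *Vangl2* mutants. The part of the glucocorticoid-responsive genes in the changes of the 8 genes was not tested.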

How the data were processed

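RNA from whole left lung lobes of 24 mice, 3 lungs in each of 8 groups, had been sequenced on Illumina HiSeq instruments. The values deposited are a signal, the count of reads per gene divided by a size factor of each lung. The submitters' processing notes name DESeq2, with no version, and the mm10 build, while the aligner, the counting and the strand setting are not given in the sources used here. Dividing by the value of 1 read gave whole reads (within 0.02) in 21 of 24 lungs, from 16178031 to 21546673 reads on genes in 20 of them and fewer in the P5 *Ror2* control replicate 1, which lacks part of the genome. In 3 P5 lungs reads could not be recovered, so edgeR was run at P2 only. Counting error is small at these depths except for *Aqp3* at P5.

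Samples were grouped by their titles, 4 rows of repeated names were left out of each table, and 0 columns of per-sample values went unused. Per table, limma with a trended eBayes was fitted to log2(normalized count + 1) for genes that reached 1 normalized count in 3 or more lungs, and the two-sided p-values carry a Benjamini-Hochberg adjustment across every gene fitted. The fit was run on simulated counts with known changes, drawn for independent lungs with a fixed dispersion for all genes. That dispersion was not estimated from these lungs, so the run checks the code and not the error rate here. Differences between comparisons were fitted over 12 lungs with 4 group means. Lungs are separate samples by the labels, and nothing in the labels says whether they shared litters. At P5 in the *Vangl2* table, deviations from the group means went together in lungs sharing a number (r of 0.38, 0.34 and 0.24). No label gives a pairing, and the main fit has none. Values with the replicate number as a block are given beside it. Alternatives were pseudocounts of 0.5 and 5, no filter or a mean of at least 10, TMM, scaling to pan-epithelial markers, no trend, the replicate block, *Xist* as covariate, 12 lungs of an age in one fit, edgeR's quasi-likelihood test and each lung left out. Genes named from the wider transport list were all those called, up to 10 by size, or the 3 largest changes where none was. The 8 genes, the lists and the tests were chosen with earlier results of these data known. Versions were R 4.3.3, limma 3.58.1, edgeR 4.0.16, Python 3.11.15 and SciPy 1.17.1.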

Additional observations from a re-analysis of the deposited data

How the results depend on the processing

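With 3 lungs in a group the calls hang on single lungs, while the sizes of the changes moved less. Over alternatives other than leaving out a lung, the log2 fold changes of the 8 genes in the 4 comparisons kept direction and side of the threshold in 288 fits, lost the call in 31, gained it in 4 and turned in 13; with a lung left out the numbers were 135, 41, 7 and 9. Without the eBayes trend 0 of the 8 genes were called in the *Vangl2* mutants at P2 and P5 and in the *Ror2* mutants at P5, with 1, 4 and 11 genes in all, and 2 in all in the *Ror2* mutants at P2. With *Xist* as covariate 0 were called in the *Vangl2* mutants at P2 and P5 (12 and 23 in all), and this fit was not run in the P5 *Ror2* table, where *Xist* is missing in a control. With 12 lungs of an age in one fit, 1 gene of the 8 was called in the *Vangl2* mutants at P2 (50 in all), and in all 1023 in the *Vangl2* and 3 in the *Ror2* mutants at P5. The replicate block gave 5 (1558 in all) in the *Vangl2* mutants at P5, where lungs sharing a number deviated together. In the other tables lungs share only a number (same-number r from -0.09 to 0.21), and the block gave 6 in the *Vangl2* mutants at P2, 0 (1 in all) in the *Ror2* mutants at P2 and 0 (1 in all) at P5, where 1 residual degree of freedom is left for genes with a missing control; *Slc6a14* turned to -0.027 there. The block changed none of the differences between comparisons. In the *Ror2* mutants at P5, 0 of the 8 were called without a filter, 0 at a mean of at least 10 (20 in all) and 0 with control replicate 1 as deposited (1 in all), where *Cftr* turned to 2.64 because that lung has no reads on it.

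Scaling to pan-epithelial markers called 8014, 4493 and 1037 genes in all in the *Vangl2* mutants at P2 and P5 and the *Ror2* mutants at P5, 2 of the 8 in the last. On the deposited scale 17444, 17406 and 17173 genes were tested in these comparisons. Since the scaling shifts every gene, these counts hold the shift. It turned *Cftr* to -0.49 and -0.46 and *Slc12a2* to -0.14 and -0.32 in the *Vangl2* mutants at P2 and P5, *Slc6a14* to -0.15 in both mutants at P5, and *Scnn1g* to -0.35 and *Slc12a2* to -0.30 in the *Ror2* mutants at P5. With *Xist* as covariate *Cftr* turned to -0.10 and -0.033 in the *Vangl2* mutants, and with TMM to 0.0038 in the *Ror2* mutants at P2. With each lung left out, 0 to 6, 0 to 2, 0 to 4 and 0 to 4 of the 8 genes were called in the *Vangl2* mutants at P2 and P5 and the *Ror2* mutants at P2 and P5, with 1 to 2333, 0 to 54, 0 to 859 and 0 to 901 genes in all. The log2 fold change then ran for *Cftr* from -0.29 to 0.36, from -0.12 to 0.19 and from -0.13 to 0.18 in the first 3 comparisons, for *Slc12a2* from -0.062 to 0.37 in the *Vangl2* mutants at P5, and for *Scnn1g* from -0.056 to 0.16 and *Slc6a14* from -0.027 to 0.48 in the *Ror2* mutants at P5. The cause of these turns and losses was not tested.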
